A study of Homo sapiens with 21 samples.

Results

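The regions described here are the places where the insulator protein CTCF and acetylated chromatin meet in 2 human melanoma lines. They were selected on 4 region lists: a CTCF region of the line 501mel was a member when it overlapped, by at least 1 bp, a CTCF region of the line SKMEL-5, a K27ac region of 501mel and a K27ac region of SKMEL-5. The rule gave 3383 members among 39473 CTCF regions of 501mel on 23 chromosomes, which is 8.57% (95% Wilson interval 8.30 to 8.85). Of the 30343 CTCF regions that both lines shared, the members were 11.1%. A further 6932 shared regions (22.8%) met K27ac in 1 line, and in 6617 of those the line was SKMEL-5. The largest class, 20028 regions or 66.0% of the shared CTCF regions, met K27ac in neither line and is the comparison class below.

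CTCF is a zinc-finger protein that binds a long, conserved DNA motif; it stops the cohesin complex as cohesin extrudes chromatin loops, and so marks the borders and anchors of many loops. K27ac is acetylation of lysine 27 on histone H3, a mark of active promoters and enhancers. ATAC-seq cuts accessible DNA with a transposase, so an ATAC region is a stretch of open chromatin. HOXD13 is a homeodomain transcription factor of limb and digit patterning.

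The study held 21 samples, of which 15 had a region list and were used; the 5 IgG samples and the A375-GFP-HA sample were not analysed here. For 501mel and SKMEL-5 there was 1 library each of CTCF, K27ac and ATAC, and for SKMEL-147 there was 1 each of K27ac and ATAC. The remaining lists came from the melanoma line A375. In A375-HOXD13-HA cells, which overexpressed HA-tagged HOXD13, an HA library was made; in A375-shH2 and A375-shH3 cells, which carried hairpins whose target the labels do not name, there was 1 K27ac library each; A375-shNTC, read here as the non-targeting hairpin control, had 2 K27ac replicates, and A375-GFP, the cells that expressed GFP, had K27ac and ATAC. Cells were cultured for 72 h with or without doxycycline at 1 µg/ml to induce the constructs, and it is not stated for each sample whether the drug was added. The region names of the 501mel ATAC list contain the tag siNTC, a treatment that the sample labels do not mention. No CTCF list of SKMEL-147 or A375 and no ATAC or K27ac list of HOXD13-HA cells was analysed here, so nothing below shows CTCF binding in those cells or a response of chromatin to HOXD13.

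List length and place set what an overlap can show. The lists ran from 29176 HOXD13-HA regions to 163102 SKMEL-147 ATAC regions; read depth is unknown. The K27ac lists of 501mel and SKMEL-147 reached only 16.2% and 13.7% of 22035 annotated gene starts within 500 bp, whereas the SKMEL-5, A375-GFP and A375-shNTC K27ac lists reached 43.7%, 49.4%, 56.3% and 54.6%, and the 501mel ATAC list reached 61.5%. Because a member needs a K27ac region of 501mel, membership near gene starts was bounded by that list; the part this plays in the results below was not tested. With 1 library per line and target there is no replicate of any comparison between classes, so no p-value is given. Intervals are 95% Wilson intervals for shares and 95% Newcombe intervals for differences, and they cover counting error only, with regions taken as independent.

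The sequence of a member can be read where its CTCF summit fell in a promoter. Promoter sequence came from the RefSeq table for GRCh38.p14, and the motif core searched was CCANNAGNNGGC on either strand, which reads GCCNNCTNNTGG on the other strand. Of 356 members whose CTCF summit lay in a promoter window of 300 bp, 14 held the core, at a median of 69.5 bp from the summit (quartiles 33.2 and 99.5), and 6 of these had it within 50 bp. The 6 with the strongest CTCF are printed as the 250 bases before the gene start, 5′ to 3′ on the strand of the gene, because they show where the core lies in a promoter that is both CTCF-bound and acetylated; capitals mark the core.

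IRF9 (chr14:24161015-24161264, plus strand): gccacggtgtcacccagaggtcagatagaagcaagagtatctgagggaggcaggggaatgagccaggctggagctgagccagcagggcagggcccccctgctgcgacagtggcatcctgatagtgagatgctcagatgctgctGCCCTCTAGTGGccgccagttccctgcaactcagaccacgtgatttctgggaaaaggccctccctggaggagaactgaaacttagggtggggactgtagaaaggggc
STEAP1B (chr7:22500189-22500438, minus strand): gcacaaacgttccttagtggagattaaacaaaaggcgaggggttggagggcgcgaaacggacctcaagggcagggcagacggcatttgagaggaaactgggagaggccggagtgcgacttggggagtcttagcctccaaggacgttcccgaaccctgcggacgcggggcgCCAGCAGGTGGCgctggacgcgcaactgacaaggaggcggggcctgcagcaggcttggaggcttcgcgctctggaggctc
SHISA5 (chr3:48473159-48473408, minus strand): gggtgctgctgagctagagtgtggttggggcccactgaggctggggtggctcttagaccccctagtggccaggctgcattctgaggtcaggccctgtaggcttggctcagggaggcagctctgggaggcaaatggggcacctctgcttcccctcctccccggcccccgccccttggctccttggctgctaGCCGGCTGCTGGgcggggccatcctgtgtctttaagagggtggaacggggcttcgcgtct
PRPF6 (chr20:63980882-63981131, plus strand): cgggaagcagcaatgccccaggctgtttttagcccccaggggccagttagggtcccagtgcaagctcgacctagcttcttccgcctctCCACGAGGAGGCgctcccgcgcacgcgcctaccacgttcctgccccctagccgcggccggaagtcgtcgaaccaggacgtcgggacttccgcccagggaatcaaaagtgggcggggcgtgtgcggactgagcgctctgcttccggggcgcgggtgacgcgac
STAG1 (chr3:136752379-136752628, minus strand): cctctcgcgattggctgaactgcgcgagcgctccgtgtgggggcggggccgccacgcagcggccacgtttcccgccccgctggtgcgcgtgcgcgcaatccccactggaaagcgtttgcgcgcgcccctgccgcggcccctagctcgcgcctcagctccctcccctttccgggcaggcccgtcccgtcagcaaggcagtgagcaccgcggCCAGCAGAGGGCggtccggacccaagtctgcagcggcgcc
CHCHD5 (chr2:112584359-112584608, plus strand): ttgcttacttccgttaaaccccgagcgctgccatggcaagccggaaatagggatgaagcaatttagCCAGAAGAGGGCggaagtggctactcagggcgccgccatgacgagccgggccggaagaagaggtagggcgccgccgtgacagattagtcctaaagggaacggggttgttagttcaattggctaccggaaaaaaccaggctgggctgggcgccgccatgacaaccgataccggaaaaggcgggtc

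In the IRF9 promoter, a transcription factor gene of the interferon response, the core lay 24 bp from the 501mel CTCF summit, and in PRPF6, a splicing factor gene, 25 bp. In STAG1, which encodes a cohesin subunit, the distance was 40 bp. It was 98 bp in SHISA5 and 100 bp in STEAP1B. In CHCHD5 the core was 214 bp away. The SHISA5 sequence also holds an unmarked stretch, nearer the summit, that differs from the core only in an end letter. Only exact matches were marked, so these distances need not be those of the site that CTCF bound. All 6 promoters belonged to regions open in 4 lines, with K27ac in 6 to 8 of the 8 K27ac libraries.

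The core was less frequent in members' promoters than in promoters at CTCF regions without K27ac, and its share was near that of all promoters. It was present in 21 of 748 promoter windows that overlapped a member (2.81%, 1.84 to 4.25), against 70 of 989 windows that overlapped a shared CTCF region without K27ac (7.08%, 5.64 to 8.85), a difference of -4.27 points (-6.29 to -2.23). Among all 22012 windows the core was present in 2.53%, and the difference of the members from that was 0.273 points (-0.715 to 1.73). It was present in 1.59% of 630 windows with K27ac of both lines and no CTCF (0.864 to 2.90). Windows open in 501mel without CTCF of either line held it in 2.19%, and those at CTCF regions with K27ac in 1 line in 3.65%. A window counted when any part of a CTCF region overlapped it, whereas the summit lay in a window for only 356 members. Split at the members' median of the authors' CTCF −log10 q in 501mel, windows over the stronger members held it in 4.24% (17 of 401), and windows over the weaker ones in 1.15% (4 of 347). The mean GC content was 60.0% in the members' windows and 63.4% in the windows without K27ac. A match is a description, and a window without these letters says nothing about binding.

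CTCF at the members had a median strength close to that of the comparison class in 501mel and a lower one in SKMEL-5. These values come from the lists that chose the members and are given without a test. The authors' fold enrichment of the CTCF region in 501mel had a median of 9.35 at members (quartiles 6.59 and 14.7) and 10.0 at shared CTCF regions without K27ac (6.95 and 14.8). In SKMEL-5 the medians were 9.14 and 14.4, and at regions with K27ac in 1 line 11.5. The members were wider, with a median of 617 bp against 470 bp for the regions without K27ac. Their K27ac regions had a median fold of 6.40 in 501mel and 20.1 in SKMEL-5.

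The K27ac summit, the highest point of the acetylated region, was in most members more than 100 bp from the CTCF summit. The CTCF summits of the 2 lines were a median of 61.0 bp apart, and 64.7% were within 100 bp of each other. The K27ac summit was a median of 574 bp from the CTCF summit in 501mel and 395 bp in SKMEL-5. It was within 100 bp in 6.24% and 12.1% of members. The share for summits placed at random was not computed, so these values do not show that K27ac summits avoid CTCF summits. The CTCF summit itself fell inside the K27ac region of SKMEL-5 in 92.9% of members but inside that of 501mel in 41.6%. In the remaining 501mel members the summit lay a median of 225 bp outside the K27ac region, so that the rule was met by the flank of the CTCF region. It was inside neither K27ac region in 6.33% of members. The K27ac regions at members were a median of 1468 bp wide in 501mel and 2901 bp in SKMEL-5. At the edge of the rule, 305 members had at most 50 bp of overlap in a line (median CTCF fold 9.53), and 253 shared CTCF regions missed membership by at most 50 bp (median 9.31).

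**Figure D1:**
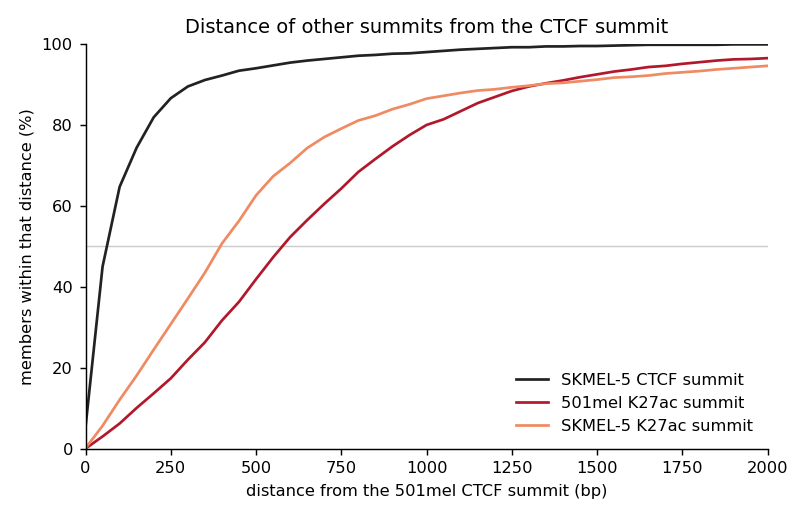
Cumulative share of the 3383 members (y axis, %) whose SKMEL-5 CTCF summit, 501mel K27ac summit or SKMEL-5 K27ac summit lay within a given distance (x axis, bp) of the 501mel CTCF summit. The CTCF curve reaches 64.7% at 100 bp, where the K27ac curves of 501mel and SKMEL-5 stand at 6.24% and 12.1%.

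The members with the strongest CTCF in both lines, by the sum of their ranks in the 2 lists, were open in all 4 lines, and 9 of the 10 lay more than 2 kb from the nearest gene start or end. The first was at chr1:145891545-145892904, inside the integrin gene ITGA10 and 6245 bp from an end of ANKRD35, its nearest gene by the rule used here, with CTCF fold values of 47.9 in 501mel and 72.9 in SKMEL-5. Its K27ac fold was 9.90 in 501mel, 57.3 in SKMEL-5, 23.1 in A375-GFP and 11.5 in SKMEL-147. In A375-shH2 and A375-shH3 its K27ac fold was 32.5 and 44.6, against 46.2 and 45.3 in the A375-shNTC replicates. A fold is set against each library's own background, so such values rank regions within a list and are not levels to compare between libraries.

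The second, inside CEP85 and nearest the start of SH3BGRL3 at chr1:26275240-26276432, had CTCF fold values of 58.5 and 91.4 in 501mel and SKMEL-5 and K27ac in all 8 libraries. The strongest CTCF fold of the 10 in 501mel, 73.4, was near AP5S1, which encodes an adaptor protein complex subunit, at chr20:3818068-3818992; K27ac there reached only 5.20 in 501mel and 4.80 in SKMEL-5, and A375-shH2 and SKMEL-147 listed none. Near NEU3, a sialidase gene, at chr11:75022691-75024646, CTCF fold was 45.1 and 115 in 501mel and SKMEL-5, and K27ac was listed in 4 of 8 libraries. PTGIS, the prostacyclin synthase gene, was the nearest gene of a region at chr20:49610387-49612634 that was also acetylated in 4 libraries. The member among the 10 within 2 kb of a gene start was 157 bp from that of AAAS, which encodes a nuclear pore protein, at chr12:53321118-53322135, with K27ac in 7 libraries. The others lay nearest CCDC200, NBPF1, SLC1A4 and AZIN2, with K27ac in 7 or 8 libraries. None of the 10 overlapped a HOXD13-HA region.

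Acetylation of these sites extended to lines that the rule did not use. In A375-GFP, 75.0% of members (73.5 to 76.4) overlapped a K27ac region, against 8.15% of shared CTCF regions without K27ac (7.78 to 8.54); the difference was 66.8 points (65.3 to 68.3), and over all 501mel CTCF regions the share was 27.3%. In SKMEL-147 the shares were 41.6% of members and 2.71% of the comparison class, a difference of 38.9 points (37.2 to 40.6), beside 11.7% of all. Regions with K27ac in 1 line stood between, at 50.4% in A375-GFP and 19.7% in SKMEL-147. Acetylated regions without CTCF, the 14441 K27ac regions that 501mel and SKMEL-5 shared where neither line had CTCF, were acetylated in A375-GFP in 59.5% and in SKMEL-147 in 33.0%. Against these the members were 15.5 points (13.8 to 17.1) and 8.59 points (6.77 to 10.4) higher, a smaller difference than against CTCF regions chosen to lack K27ac. By place, the SKMEL-147 share of members was 45.1% within 2 kb of a gene start, 40.9% inside genes and 39.2% between genes. In A375-GFP these shares were 89.2%, 71.9% and 66.0%. The SKMEL-147 K27ac list held 58855 regions and reached few gene starts, as stated above, and the A375-GFP list held 139985. The part that list length or reach plays in these shares was not tested. Both A375-shNTC replicates listed K27ac at 77.0% of members, against 9.90% of the comparison class and 31.6% of all. In every quartile group of 501mel CTCF strength (the authors' −log10 q over the shared regions) the difference in SKMEL-147 was between 36.2 and 41.1 points.

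The same order held at open and at closed sites. Where a region was open in A375-GFP, 81.1% of 2908 members carried K27ac there, against 9.22% of 14804 comparison regions; where it was not open, the shares were 37.9% of 475 and 5.13% of 5224. In SKMEL-147 the shares were 49.4% and 2.81% at open regions and 11.2% and 2.12% at regions not open. K27ac in both A375-GFP and SKMEL-147 was found at 1272 members (37.6%), in A375-GFP alone at 1265 (37.4%), in SKMEL-147 alone at 135 (3.99%) and in neither at 711 (21.0%). All 8 K27ac libraries covered 1132 members (33.5%), while 472 (14.0%) had K27ac in no library besides 501mel and SKMEL-5. The rule itself fixed the libraries of 501mel and SKMEL-5, and all others but that of SKMEL-147 came from A375. These combinations were not counted over all 501mel CTCF regions, so they describe the members only.

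**Figure D2:**
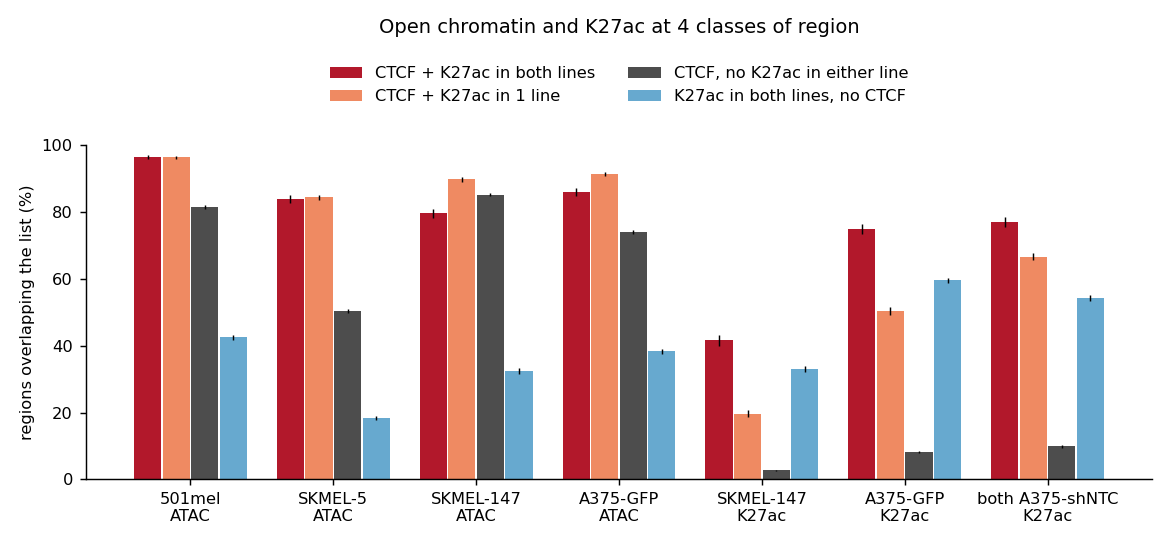
Share of regions (y axis, %) that overlapped each ATAC or K27ac list (x axis) for shared CTCF regions with K27ac in both lines, in 1 line or in neither, and for K27ac regions of both lines without CTCF; bars are shares and lines are 95% Wilson intervals. K27ac of A375-GFP covered 75.0% of members and 8.15% of CTCF regions without K27ac, while SKMEL-147 ATAC covered 79.7% and 85.2%.

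Most members lay in open chromatin in every line. In 501mel 96.4% of members overlapped an ATAC region, against 81.5% of shared CTCF regions without K27ac, a difference of 14.9 points (14.0 to 15.7), with 84.6% over all 501mel CTCF regions. SKMEL-5 gave 83.8% against 50.4%, a difference of 33.5 points (32.0 to 34.8), with 56.4% over all. In A375-GFP the shares were 86.0% and 73.9%, a difference of 12.0 points (10.7 to 13.3), with 73.0% over all. These differences were smaller where CTCF was stronger. Between the weakest and the strongest quartile group they went from 33.9 to 1.76 points in 501mel. The 501mel shares went from 91.6% to 99.1% of members and from 57.7% to 97.4% of the comparison class. In the strongest group nearly all regions of both classes were open, which left little room for a difference. In SKMEL-5 the differences went from 42.4 to 20.4 points and in A375-GFP from 24.2 to 3.88. Between the narrowest and the widest quartile group of CTCF regions they went from 22.5 to 5.61 points in 501mel. By width SKMEL-5 went from 30.5 to 25.9 points and A375-GFP from 16.7 to 3.19. Open chromatin in all 4 lines was found at 2255 members (66.7%) and at 42.8% of the comparison class, beside 46.5% of all. Regions with K27ac in 1 line were open about as often as members or more often, by line: 76.2% of them were open in all 4 lines (members minus these, -9.55 points, -11.4 to -7.69). In 501mel their share was 96.4% and in SKMEL-5 84.4%, both with intervals of the difference that include 0; in A375-GFP it was 91.4% and in SKMEL-147 89.8%, higher than at members. With each ATAC list held to its strongest 56000 regions the difference of members from the comparison class was 35.0 points in 501mel and 34.8 points in A375-GFP. No line was open at 67 members (1.98%), against 6.90%.

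SKMEL-147 went the other way on the whole list. There 79.7% of members and 85.2% of the comparison class were open, a difference of -5.49 points (-6.96 to -4.08), with 76.5% over all. The sign depended on place and list length. Near a gene start the difference was 5.64 points (3.37 to 7.73), inside genes -12.9 points (-15.4 to -10.4) and between genes -6.88 points (-9.57 to -4.38). In the weakest quartile group of CTCF strength it was 3.95 points, and in the other groups it ran from -9.10 to -5.95. With each ATAC list held to its strongest 56000 regions it was 21.5 points (19.7 to 23.2). The SKMEL-147 ATAC list is the longest, with 163102 regions.

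Open in all 4 lines was the commonest set in both classes, and the classes differed in how frequent the smaller sets were. After the 2255 members open in all lines, the next set among members was 501mel, SKMEL-5 and A375-GFP without SKMEL-147, at 310 members (9.16%), against 1.38% of the comparison class. 501mel and SKMEL-5 alone were open at 172 members (5.08%), against 0.924%. The set without SKMEL-5 showed the reverse: 266 members (7.86%) were open in 501mel, SKMEL-147 and A375-GFP, against 21.9%. The 172 members open only in 501mel and SKMEL-5 lay near a gene start in 6.40% of cases (3.61 to 11.1) and had K27ac in A375-GFP in 27.9%. The 2255 open in all 4 lines lay near a gene start in 32.2% (30.3 to 34.1) and had K27ac in A375-GFP in 82.8%.

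**Figure D3:**
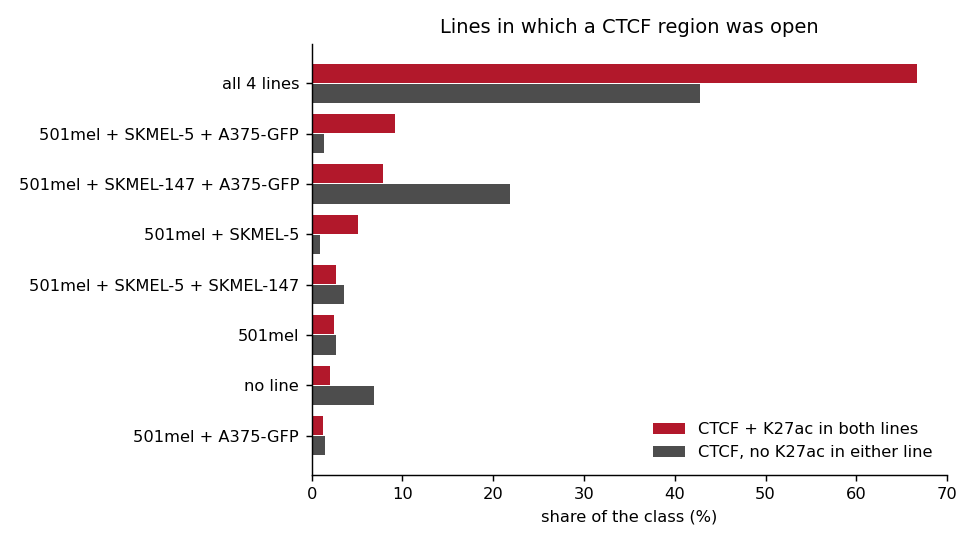
Share of each class (x axis, %) by the set of lines with an ATAC region at the site (y axis), for the 8 sets most frequent among members, with members above and CTCF regions without K27ac in either line below in each pair. Members were open in all 4 lines in 66.7% against 42.8%, and in 501mel, SKMEL-147 and A375-GFP without SKMEL-5 in 7.86% against 21.9%.

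Over the whole sets, members open in no line were near a gene start in 35.8% of cases (25.4 to 47.8), a share whose interval holds that of members open in all 4 lines. The 5 strongest regions that were open in all 4 lines and acetylated in all 8 libraries lay nearest ANKRD35, SH3BGRL3, SLC1A4 (a neutral amino acid transporter), NUFIP1 (a snoRNP assembly factor) and ABCA8 (an ABC transporter); 3 of the 5 were between genes, 71667 bp or more from the nearest start or end. The 5 strongest with no ATAC region in any line were all within 2168 bp of a gene start or end. They lay nearest RGMB (a co-receptor for bone morphogenetic proteins), KANSL1 (a subunit of a histone acetyltransferase complex), CS (citrate synthase), TNFAIP3 (an inhibitor of NF-κB signalling) and JMJD6 (an oxygenase). At TNFAIP3, chr6:137864975-137865337, CTCF fold was 12.4 in 501mel and 20.3 in SKMEL-5, K27ac fold was 10.2 and 20.1, and no other K27ac library listed a region. At RGMB, chr5:98770785-98771786, K27ac was found in 6 libraries. The CTCF regions of the 67 members that were open nowhere were weaker, with a median 501mel fold of 6.06 against 10.1 for those open in all 4 lines.

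HOXD13-HA regions of A375 met 277 members, or 8.19% (7.31 to 9.16). The share was 1.64% of shared CTCF regions without K27ac, a difference of 6.55 points (5.65 to 7.54), and 3.58% over all 501mel CTCF regions. The difference was 3.30 points with overlaps of at least 50% of the region and 3.39 points with a −log10 q of at least 10. Regions with K27ac in 1 line stood between, at 5.01%. In each quartile group of CTCF strength and of CTCF width and in each place the members' share was the higher, with differences from 2.19 points near gene starts to 9.04 points in the third group of CTCF strength. At sites open in A375-GFP the shares were 9.18% of members and 1.92% of the comparison class, and at sites not open 2.11% and 0.842%.

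Set against acetylated regions that lacked CTCF, the members' share was higher, but among regions open in A375-GFP the interval of the difference included 0. Of the 14441 acetylated regions without CTCF, 4.72% met HOXD13-HA, 3.47 points below the members (2.52 to 4.50); with a −log10 q of at least 10 the difference was 1.00 points (-0.208 to 2.55). Those regions were open in A375-GFP in only 38.3% of cases, against 86.0% of members. Among open regions the shares were 9.18% of members and 8.66% of acetylated regions without CTCF, a difference of 0.520 points (-0.740 to 1.83); among regions not open they were 2.11% and 2.27% (-0.162 points, -1.17 to 1.59). With SKMEL-5 regions as the unit the difference among open regions was -2.25 points (-3.67 to -0.808), and with 500-bp windows around CTCF and K27ac summits it was 1.97 points (0.658 to 3.34). The CTCF regions and the acetylated regions had median widths of 617 and 653 bp.

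**Figure D4:**
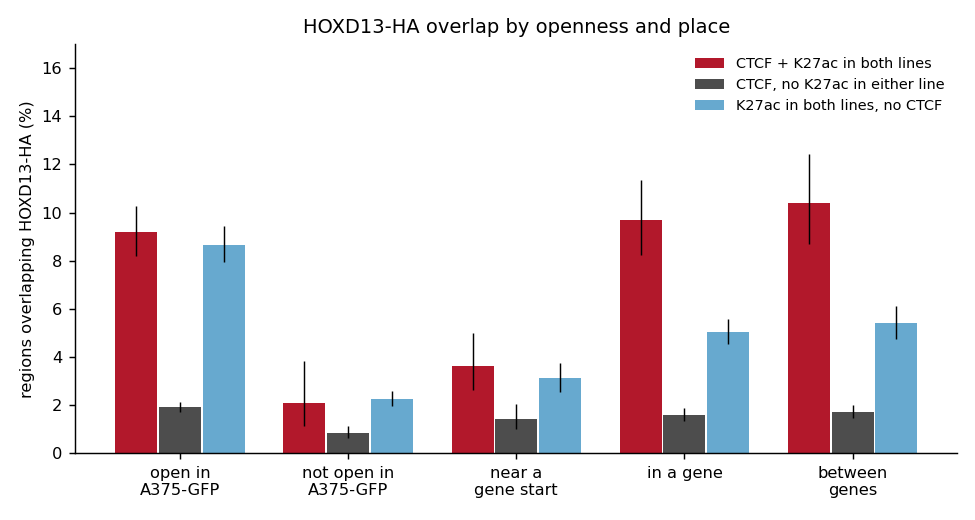
Share of regions (y axis, %) that overlapped a HOXD13-HA region of A375, by openness in A375-GFP and by place (x axis), for members, CTCF regions without K27ac in either line and K27ac regions of both lines without CTCF; lines are 95% Wilson intervals. At regions open in A375-GFP the 3 shares were 9.18%, 1.92% and 8.66%.

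The HOXD13-HA regions at members were slightly weaker than HOXD13-HA regions at large. Their authors' fold had a median of 3.40 (quartiles 2.75 and 4.40), and over all 29176 HOXD13-HA regions it was 3.93 (3.23 and 4.97). The 10 members with the highest HOXD13-HA fold ranged from 18.8 down to 8.15. The first lay 657 bp from the start of TNRC18, at chr7:5424378-5424660, where the HOXD13-HA region was chr7:5423878-5424570. This member had CTCF fold values of 11.6 in 501mel and 10.8 in SKMEL-5 and K27ac in 7 libraries. The third, with a HOXD13-HA fold of 11.9, covered the start of TRIM2, a ubiquitin ligase gene, at chr4:153204317-153205292. The fourth, at chr1:156456361-156457916, was the only member of the 10 with a CTCF rank in the first 100; it lay 34058 bp from the start of MEF2D, a transcription factor gene, and had a HOXD13-HA fold of 11.4. The others lay nearest PREP, HEY1 (a Notch effector), HNRNPA3, GPR84, FOXD2 (a forkhead factor) and 2 uncharacterised loci. Of the 10, 8 were open in all 4 lines.

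The clusters of HOX genes held 3 members among 24 shared CTCF regions (12.5%, 4.34 to 31.0), beside 11.1% of all shared CTCF regions. The HOXA, HOXC and HOXD clusters had 1 member each and HOXB none, among 6, 5, 4 and 9 shared CTCF regions of HOXA, HOXC, HOXD and HOXB. In HOXD the member was at chr2:176096587-176098048, 2051 bp from the start of HOXD12, between HOXD12 and HOXD13. It had CTCF fold values of 14.8 in 501mel and 23.7 in SKMEL-5 and was open in all 4 lines. Its K27ac fold was 12.4 in 501mel, 11.7 in SKMEL-5 and 8.12 in A375-GFP, and SKMEL-147 listed none. Its K27ac fold was 4.08 in A375-shH2, 7.28 in A375-shH3, and 2.13 and 2.03 in the A375-shNTC replicates. As stated above, these are not levels to compare between libraries. No HOXD13-HA region overlapped it. The HOXC member, chr12:54018413-54018634, met a HOXD13-HA region of fold 2.25, and the HOXA member lay 156 bp from the start of HOXA3.

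In the hairpin libraries the members kept K27ac more often than K27ac regions at large, and strength went with it. K27ac was listed at 65.4% of members in A375-shH2 and 69.2% in A375-shH3, against 79.5% and 78.1% in the A375-shNTC replicates. Over all 501mel CTCF regions the shares were 20.0% and 25.8%, against 34.6% and 33.1%. At acetylated regions without CTCF they were 37.8% and 41.5%, against 57.9% and 56.7%. The hairpin shares were thus lower in these classes too. Of 2605 members with K27ac in both shNTC replicates, 208 (7.98%, 7.00 to 9.09) had none in either hairpin library, against 37.1% of all 65337 K27ac regions common to the replicates, a difference of -29.1 points (-30.1 to -27.9), or -10.9 points (-11.8 to -9.83) with each list held to its strongest 42000 regions. The members without K27ac in A375-shH2 were 16.1%, beside 52.2% of all regions, and in A375-shH3 12.1%, beside 42.7%. The units of these shares are unlike. A member was overlapped as its CTCF region, and the regions at large as whole K27ac regions merged over the replicates. A K27ac region that became narrower could thus be lost at a member and kept in the share of all regions. The shH2 and shH3 lists are shorter, with 43634 and 51838 regions against 85977 and 80242 in the shNTC replicates. Loss of a listed region cannot be told apart from a difference in depth here, and which gene the hairpins lowered is not given.

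Members sat mostly in the strongest quartile group of shNTC regions, by the authors' −log10 q, with 1879 of them there. In that group 2.29% of members and 1.90% of all regions were in neither hairpin list, a difference of 0.391 points (-0.235 to 1.20). In the weaker groups the members' share was lower: 63.8% against 77.4% in the weakest, 31.2% against 51.4% in the next and 11.2% against 18.4% in the third. The difference there was -13.6 points (-23.7 to -4.54), -20.2 points (-27.0 to -12.6) and -7.16 points (-9.77 to -3.94). K27ac in both hairpin libraries and in neither shNTC replicate was found at 4 members (0.118%), and the share over all regions was not computed. Of the members named here as open nowhere, CS and JMJD6 were among the 208.

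**Figure D5:**
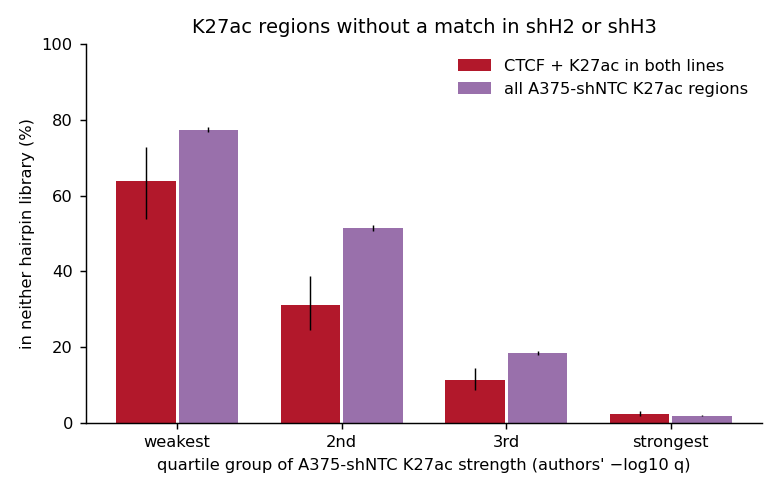
Share of K27ac sites found in both A375-shNTC replicates that were in neither hairpin list (y axis, %), by quartile group of shNTC K27ac strength (x axis), for members and for all K27ac regions of both replicates; lines are 95% Wilson intervals. In the strongest group the shares were 2.29% and 1.90%. Members were overlapped as CTCF regions and the others as whole merged K27ac regions, so the units are unlike.

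By place, members were near gene starts more often than CTCF regions without K27ac and less often than those acetylated in 1 line. The CTCF summit was within 2 kb of a gene start (a gene end for the genes without a start in the promoter table) at 962 members, or 28.4% (26.9 to 30.0). It was there in 11.0% of the comparison class, a difference of 17.4 points (15.8 to 19.0; 8.79 points with a −log10 q of at least 10), and in 20.2% of all 501mel CTCF regions. Among regions with K27ac in 1 line, nearly all of it in SKMEL-5, the share was 46.8%, and the members were 18.3 points below (-20.2 to -16.4). Inside genes lay 40.9% of members, against 40.7%, and between genes 30.7%, against 48.2%. The median distance from a member to a gene start or end was 15521 bp, and 2358 different genes were nearest to one.

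Members were most frequent among the shared CTCF regions of chromosomes 6 and 17, at 15.6% and 15.4%, and least on X and 21, at 3.02% and 3.86%. The median distance from a member to the nearest other member was 50820 bp, and 27.4% had another member within 10 kb. In the comparison class, which is larger with 20028 regions, the median was 21169 bp and the share 34.3%. There were 408 runs of members at most 10 kb apart and 2456 members that stood alone.

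The longest run was in MITF, the master transcription factor gene of melanocytes. It held 7 members in chr3:69919923-69948439 and was singled out after its values were seen. The strongest, chr3:69919923-69920875, had CTCF fold values of 32.3 in 501mel and 40.4 in SKMEL-5, and ATAC fold values of 10.3, 7.03 and 6.44 in 501mel, SKMEL-5 and SKMEL-147, with no A375-GFP region. Its K27ac fold was 11.7 in 501mel and 107 in SKMEL-5, and none of the other 6 K27ac libraries listed a region. The member 298 bp from the MITF start, chr3:69936101-69936493, had lower CTCF fold values of 3.81 and 6.30; it was open in 501mel, SKMEL-5 and A375-GFP and not in SKMEL-147. None of the 7 met K27ac of SKMEL-147 or HOXD13-HA, and a single K27ac region of SKMEL-5, of fold 107, covered all of them. A375 K27ac lists did meet part of the run. K27ac was listed in 2 libraries at chr3:69919923-69920875 and chr3:69947916-69948439, and in 3 to 6 libraries at the others of the run. At chr3:69944708-69945408 the 6 libraries included A375-GFP (fold 8.61), A375-shNTC replicate 1 (4.58), A375-shH2 (5.10) and A375-shH3 (3.55). A375-shNTC replicate 2 listed none there. The next runs, of 6 members each, lay at LMNA and SEMA4A and at ST6GALNAC2 and CYGB.

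Lists of genes show which starts carried a member, and their share is read beside that of all 19974 protein-coding genes, of which 1042 (5.22%) had a member within 2 kb of a start. A member needs K27ac of both 501mel and SKMEL-5, so the rule favours genes with K27ac near the start in both lines. The share among such genes was not computed. A list share above 5.22% can therefore follow from the rule alone. Melanocytic genes had one at 7 of 20: MITF, SOX10, MLANA, SLC45A2, TRPM1, EDNRB and CDK2, which neighbours the pigment gene PMEL. SLC45A2, a melanosome transporter gene, had its member 116 bp from the start at chr5:33984391-33984903. CTCF fold there was 7.76 in 501mel and 8.58 in SKMEL-5, and K27ac fold was 3.24 and 28.4. It was open in 501mel and SKMEL-5 and neither open nor acetylated in SKMEL-147 or any A375 library. TRPM1, a melanocyte cation channel gene, showed the same pattern at chr15:31101687-31103265, with K27ac fold 9.97 in 501mel and 21.8 in SKMEL-5. EDNRB, the endothelin receptor B gene, was open in all 4 lines at chr13:77918577-77920485 and acetylated in 6 libraries. At CDK2 the member was acetylated in all 8.

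Cytosolic ribosomal protein genes had a member at 6 of 20 starts, namely RPS3, RPS12, RPS14, RPL3, RPL5 and RPL11. At RPL5, chr1:92831461-92832497, CTCF fold was 22.0 in 501mel and 14.8 in SKMEL-5, with K27ac in 7 libraries. At RPL11, chr1:23691448-23692046, CTCF fold was 37.9 and 36.9, with K27ac in all 8. RPS14 and RPL3 were likewise open in all 4 lines and acetylated in all 8 libraries. Feedback genes of the MAPK pathway had one at 4 of 17: DUSP6, a phosphatase of ERK, ETV4 and ETV5, ETS transcription factors, and PHLDA1. The DUSP6 member, chr12:89352212-89352970, had CTCF fold 4.77 in 501mel and 13.5 in SKMEL-5. Its K27ac fold was 10.1 in 501mel, 46.7 in SKMEL-5, 49.2 in A375-GFP and 9.37 in SKMEL-147. It was 18.6 in A375-shH2, 29.7 in A375-shH3, and 34.4 and 33.5 in the shNTC replicates, values that again are not levels to compare between libraries. The ETV5 member had K27ac in 3 libraries and met a HOXD13-HA region of fold 3.63.

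Among genes of cohesin and CTCF partners, 2 of 15 had a member, STAG1 and SMC3, both encoding cohesin subunits. At STAG1, whose promoter is printed above, CTCF fold was 13.2 in 501mel and 28.7 in SKMEL-5, and K27ac fold 5.38 and 27.5. At SMC3, chr10:110567122-110567680, CTCF fold was 14.7 and 14.1, and all 8 libraries listed K27ac. Cell cycle genes had a member at 1 of 20 starts, CDK2 again. HOX genes had one at 4 of 39, of which HOXC4, HOXC5 and HOXC6 shared 1 region. No member was within 2 kb of a start in the lists of 25 angiogenesis genes, 12 antigen presentation genes outside the MHC, 14 imprinted, 15 clustered protocadherin, 12 T cell, 12 hepatocyte and 11 keratinocyte genes. At the 5.22% share of all genes, lists this short would hold few or none, so these absences are not a result. Within 10 kb, where 8.24% of all genes had a member, these lists held RFX5 (antigen presentation), LCK (T cell) and PCDHGC5 (protocadherin).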

How the data were processed

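Region lists of 15 libraries were read as the authors deposited them. The submitters' processing notes name Trim Galore, Bowtie2, SAMtools, MACS2 and deepTools and the build hg38; versions, peak thresholds, control libraries and pooling are not given in the sources used here. The labels do not say whether a library was made by ChIP-seq or CUT&Tag, and their extraction text describes RNA, so it does not describe these libraries.

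Each deposited list gives a region, its summit, a score, a ratio (the authors' fold enrichment at the summit over the caller's background) and the authors' −log10 p and −log10 q. The score was read only to check the layout. No deposited file here holds counts, so depth is unknown and no count test was run.

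Regions of 23 chromosomes were overlapped by at least 1 bp with Python 3, NumPy and pandas; coordinates are 1-based on hg38. Gene starts came from the RefSeq promoter table where it has the gene (15813 of 19974 protein-coding genes) and otherwise from both gene ends (4161 genes, chromosome 8 included). Interval functions were tested on simulated regions. Shares carry 95% Wilson intervals and differences 95% Newcombe intervals.

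The members and the gene lists were chosen with earlier results of these data known. Named regions follow fixed ranks: the 10 strongest in CTCF, the 10 highest in HOXD13-HA fold, the 5 strongest open and acetylated in every library, the 5 strongest open in no line, those in HOX clusters, and at most 4 per gene list. Some gene lists are not reported here. Alternatives were a larger overlap, summit windows, a stricter −log10 q, lists of equal length, no MHC, SKMEL-5 as the unit, other distances, a looser motif, and each shNTC replicate left out.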

Additional observations from a re-analysis of the deposited data

Results flagged for a closer look

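The openness of the sites in SKMEL-147 had the opposite sign to that in the other 3 lines. There the difference in the share of open regions, members minus shared CTCF regions without K27ac, was -5.49 points, while it was 14.9 points in 501mel, 33.5 points in SKMEL-5 and 12.0 points in A375-GFP. The difference between lines was not tested, since each line has 1 ATAC library.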

How the results depend on the processing

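The number of members was 1448 when the overlaps had to cover at least 50% of the CTCF region and 889 with a −log10 q of at least 10, or 4.98% and 4.92% of the shared CTCF regions; it ran from 2934 to 3493 in the remaining settings. Of 100 recomputed values, 84 kept their direction and their side of 0, or for counts stayed within 1.5 times, but some of these differences moved by more than 1.5 times. Openness in 501mel, members minus CTCF regions without K27ac, was 14.9 points, 40.7 with overlap of at least 50% of the region and 35.0 with the strongest 56000 ATAC regions; in A375-GFP it was 12.0 and, with those ATAC regions, 34.8 points. With a −log10 q of at least 10, the HOXD13-HA difference from the same class was 3.39 points in place of 6.55 (3.30 with overlap of at least 50%), and the difference near gene starts 8.79 in place of 17.4 points. The motif difference was -12.2 points with the looser core, and the HOXD13-HA difference from acetylated regions without CTCF was 2.05 points with SKMEL-5 regions as the unit. For openness in SKMEL-147 the difference was -8.39 points with 500-bp windows, -9.12 points with a −log10 q of at least 10, -1.84 points with overlap of at least 50% of the region, its interval then including 0, and 21.5 points with the strongest 56000 ATAC regions per line; the cause was not tested. The HOXD13-HA difference from acetylated regions without CTCF was 1.00 points with −log10 q of at least 10, its interval including 0; among regions open in A375-GFP it was 1.97 points with 500-bp windows and -2.25 points with SKMEL-5 regions as the unit. The hairpin difference was -10.9 points with the strongest 42000 K27ac regions per library, and leaving out an A375-shNTC replicate gave -38.4 to -36.6 points. The number of genes with a member was 1646 within 10 kb. K27ac lists that reach few gene starts, unequal list lengths and unknown depth limit how all shares can be read. No paired analysis was possible because no class was compared across replicates: only A375-shNTC had 2.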
